A study of Mus musculus with 6 samples.

Results

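The genes of matriptase (St14), prostasin (Prss8), the related protease Prss22 and the Kunitz-type inhibitors HAI-1 (Spint1) and HAI-2 (Spint2) were followed in tumor-initiating cells (TICs) and in the remaining tumor cells of mammary carcinomas. They were found as the rows of the count files whose Ensembl identifiers map to these symbols, which gave 5 of 41388 genes. All 6 samples came from FVB/N-TgN(MMTVPyVT)634Mul/J mice, which express the polyoma middle T oncogene under the mouse mammary tumor virus promoter and develop metastasizing mammary carcinomas. TICs were sorted as CD24+CD90+CD45- cells (3 samples), and the comparison group (3 samples) held CD45- cells negative for CD24, CD90 or both. These are the non-CD24+CD90+ tumor cells of the study and are called control tumor cells here. The series text describes this second group as negative for both markers, so that the share of single-positive cells in it cannot be told from the sources. Per the study's methods, tumors were taken from female mice, and the TICs of the later experiments came from mice aged 12 weeks. Dead and CD45+ cells were gated out and material from 4 sorts was pooled per sample. The labels give 120 ng of RNA as library input. CD24 and CD90 also occur on cells other than tumor cells, and no surface marker besides CD24, CD90 and CD45 was part of the sort. The transcripts of the sorting markers did not separate the groups: Cd24a had 440, 315 and 356 CPM (counts scaled to a common library total) in TICs and 402, 405 and 602 CPM in control tumor cells (log2 fold change −0.34, standard error 0.30, adjusted p = 0.98). Thy1, the gene of CD90, had 90.7, 207 and 70.3 CPM in TICs and 75.9, 56.7 and 21.6 CPM in control tumor cells (log2 fold change 1.25, standard error 0.50, adjusted p = 0.35).

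Matriptase is a type II transmembrane serine protease of epithelial cells, and prostasin is a serine protease held at the cell surface by a lipid anchor. Both are made as inactive precursors, and each takes part in activating the other in epithelia. HAI-1 and HAI-2 are transmembrane proteins whose Kunitz domains block the active site of these proteases. Known targets of the system include the receptor PAR2, the precursor of hepatocyte growth factor, the epithelial sodium channel and EpCAM. In mouse models, matriptase that is not held in check by HAI-1 promotes epithelial tumors.

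Stretches of the coding sequences that mark these genes as members of their protease or inhibitor family are shown first. Sequences were taken from the GENCODE M21 transcripts and are given 5′ to 3′ on the coding strand, with positions on GRCm38. In the proteases the stretch around the active-site serine is given, with the serine codon in capitals. In each of the 3 genes it is joined from 2 neighbouring exons, so that the positions span an intron.
St14, chr9:31090004-31090410, minus strand, exons 18 and 19 of 19: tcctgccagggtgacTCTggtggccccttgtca
Prss8, chr7:127926617-127926753, minus strand, exons 5 and 6 of 6: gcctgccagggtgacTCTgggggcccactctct
Prss22, chr17:23994021-23994607, minus strand, exons 5 and 6 of 6: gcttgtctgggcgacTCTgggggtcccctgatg
St14 and Prss8 had the same base at 27 of the 33 positions, St14 and Prss22 at 22, and Prss8 and Prss22 at 23. In the inhibitors the conserved signature of each Kunitz domain is given, with the codons of 2 of its cysteines in capitals. Each inhibitor gene holds 2 such stretches.
Spint1, first, chr2:119245826-119245882, plus strand, exon 5 of 11: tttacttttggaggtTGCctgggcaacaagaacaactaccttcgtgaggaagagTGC
Spint1, second, chr2:119248100-119248156, plus strand, exon 9 of 11: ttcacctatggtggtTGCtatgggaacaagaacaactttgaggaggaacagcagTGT
Spint2, first, chr7:29263620-29263676, minus strand, exon 2 of 7: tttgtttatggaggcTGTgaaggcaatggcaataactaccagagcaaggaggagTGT
Spint2, second, chr7:29258443-29258499, minus strand, exon 5 of 7: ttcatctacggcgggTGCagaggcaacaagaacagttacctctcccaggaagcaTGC
Identity between these 4 stretches ranged from 54.4% to 66.7%. Of all words of 50 bases in their transcripts, none of Spint1, Spint2 and Prss22 occurred in another gene, against 0.43% of those of St14 and 3.85% of those of Prss8. Words were matched on either strand, so that bases shared with an overlapping gene on the opposite strand count here. The exons of Prss8 share 122 bases with Kat8 on the opposite strand, and the sources do not state whether reads were counted by strand. Kat8 itself averaged 1.98 ± 2.04 CPM in TICs and 10.3 ± 6.46 CPM in control tumor cells (SD, n = 3; adjusted p = 0.95).

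Total counts per sample ranged from 6781239 to 8450038 in control tumor cells and from 8114933 to 9100552 in TICs, so that 3 counts corresponded to between 0.33 and 0.44 CPM. Of all genes, 12192 had more than 1 CPM in at least 3 samples and were tested. The groups were compared with exactTest of edgeR, with a Benjamini-Hochberg adjusted p-value below 0.1 over these genes as the threshold. This called 189 genes, or 1.55%. Pearson's r of log2 CPM across genes was between 0.697 and 0.755 among TIC samples and between 0.774 and 0.807 among the others. Single libraries missed transcripts: of the genes that the other samples of a group put at 20 to 60 counts, 8.24% to 24.1% had no count. The smallest p-value that an exact permutation of 3 TIC and 3 control samples can give is 0.1.

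Of the 5 genes, 4 passed the filter on low counts and 0 passed the threshold for a difference between TICs and control tumor cells. St14, Spint1 and Spint2 were expressed at closely similar mean levels in both groups, and the samples of the groups overlapped. Prss8 was lower in each TIC sample than in each sample of control tumor cells, by 2.38-fold on average, but this difference did not pass the adjusted threshold. Groups that do not overlap, with TICs below, were found in 7.55% of all tested genes. Among 20 general epithelial markers this was the case for 5, so that it was not particular to Prss8. Prss22 had 0 to 19 counts per sample, at most 2.51 CPM, and was below the filter. Because these are bulk samples of sorted cells, fewer cells that express a gene and less RNA per cell cannot be told apart.

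**Figure D1:**
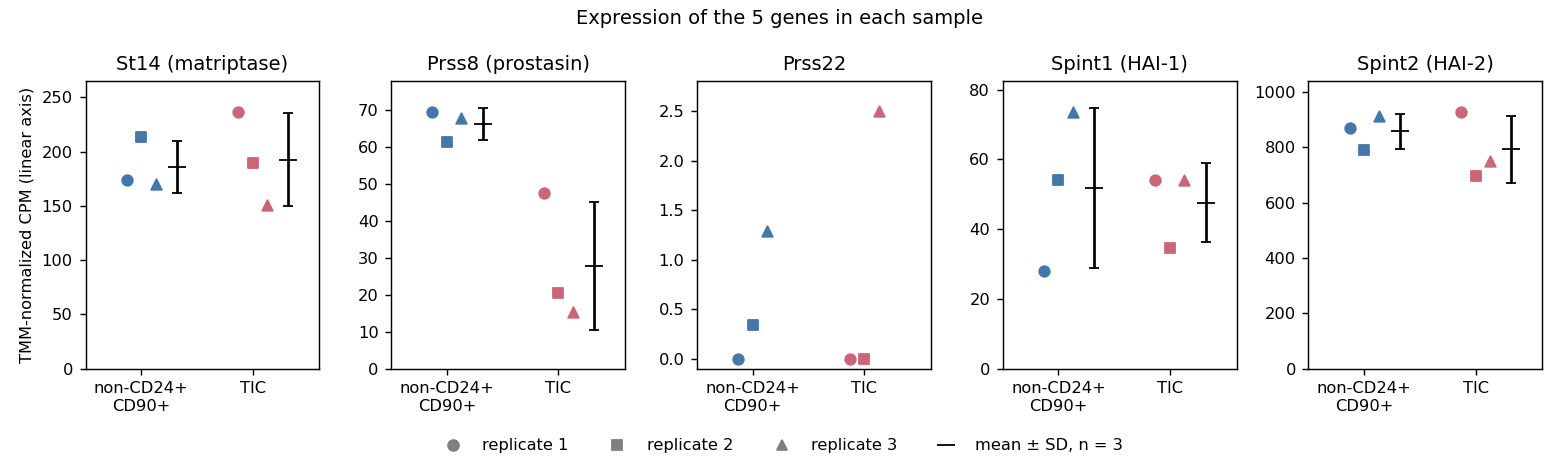
TMM-normalized CPM (linear axes) of the 5 genes in the 3 samples of each group, with the mean and SD for the 4 tested genes. Prss8 is the one gene of the 4 in which the groups do not overlap: TICs reach at most 47.7 CPM and the other samples at least 61.5 CPM.

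St14, which encodes matriptase, lies on chromosome 9 (ENSMUSG00000031995, 31089402 to 31131853, minus strand). It had 174, 213 and 170 CPM in control tumor cells replicates 1 to 3, from 1194, 1878 and 1188 counts. In TIC replicates 1 to 3 it had 237, 190 and 151 CPM, from 2154, 1629 and 1145 counts. Both the highest and the lowest of the 6 values were those of TICs. The log2 fold change was 0.05 (standard error 0.31, 95% interval −0.55 to 0.65, adjusted p = 1), which leaves room for changes between 0.68-fold and 1.57-fold. Its sign was not stable and turned to −0.0039 with library size as the only scaling.

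Prss8, which encodes prostasin, lies on chromosome 7 (ENSMUSG00000030800, 127925716 to 127930104, minus strand). Non-CD24+CD90+ tumor cells had 69.6, 61.5 and 67.9 CPM (477, 542 and 475 counts). TICs had 47.7, 20.5 and 15.3 CPM (434, 176 and 116 counts). The values of control tumor cells lay close together, whereas those of TICs spread widely, with replicate 1 nearest to the other group. The means were 27.8 ± 17.4 CPM in TICs and 66.4 ± 4.28 CPM in control tumor cells (SD, n = 3). The log2 fold change was −1.25 (standard error 0.51, 95% interval −2.26 to −0.25), with an unadjusted p of 0.017 in exactTest and an adjusted p of 0.38. An unadjusted p below 0.05 was reached by 7.85% of all tested genes. The quasi-likelihood test of edgeR gave an adjusted p of 0.48 and DESeq2 one of 0.34. The call depended on TIC replicate 1 and on the test. Without this replicate the log2 fold change was −1.87 with an adjusted p of 0.049 in exactTest, a fit in which 2.76% of all genes were called. On the same 5 samples DESeq2 also called Prss8 (adjusted p = 0.015, with 5.56% of genes called) and the quasi-likelihood test did not (adjusted p = 0.16, with 0.65% called). Leaving out any other sample gave adjusted p-values from 0.73 to 0.85 in exactTest, in fits that called 0.741%, 0.773% and 0.613% of genes without control replicates 1, 2 and 3, and 0.865% and 1.08% without TIC replicates 2 and 3.

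Prss22 (ENSMUSG00000045027, chromosome 17, 23993534 to 23998100, minus strand) encodes a trypsin-like serine protease of epithelia. It had 0, 3 and 9 counts in control tumor cells and 0, 0 and 19 counts in TICs. The largest value was 2.51 CPM in TIC replicate 3, and 3 of the 6 samples were without a count. From counting error alone, a count of 0 allows up to 3 counts, or at most 0.44 CPM in these samples. Because single libraries also missed transcripts of higher level, a count of 0 does not cap the level of Prss22. Prss22 was below the filter and was not tested.

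Spint1, the gene of HAI-1, lies on chromosome 2 (ENSMUSG00000027315, 119237362 to 119249527, plus strand). It had 27.9, 54.2 and 73.7 CPM in control tumor cells (191, 478 and 515 counts). In TICs it had 54.1, 34.6 and 54.2 CPM (492, 297 and 411 counts). All TIC values fell within the range of the other group, whose replicate 1 was the lowest of all samples. The log2 fold change was −0.12 (standard error 0.49, 95% interval −1.08 to 0.84, adjusted p = 1). It turned positive without control replicate 3 (0.22) or without TIC replicate 2 (0.06).

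Spint2, the gene of HAI-2, lies on chromosome 7 (ENSMUSG00000074227, 29256323 to 29281912, minus strand) and was the most abundant of the 5 genes. Non-CD24+CD90+ tumor cells had 871, 790 and 913 CPM (5966, 6960 and 6386 counts). TICs had 928, 697 and 750.5 CPM (8440, 5978 and 5688 counts). TIC replicate 1 was the highest and TIC replicate 2 the lowest of all samples. The log2 fold change was −0.12 (standard error 0.27, 95% interval −0.65 to 0.42, adjusted p = 1), and its interval was the narrowest of the 4 tested genes.

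Levels of different genes were compared per length, as TMM-normalized reads per kilobase scaled by library size, as for CPM (RPKM), over the union of annotated exons. Over the 6 samples Spint2 had 181 ± 20.5, Prss8 25.4 ± 12.9, St14 24.8 ± 4.09, Spint1 18.0 ± 5.91 and Prss22 0.52 ± 0.77 RPKM (SD). Spint2 stood above the other genes in every sample. The order of Prss8 and St14 was not the same in the groups. Prss8 was above St14 in every control sample, with means of 35.8 ± 2.31 and 24.3 ± 3.11 RPKM, and below St14 in every TIC sample, with means of 15.03 ± 9.39 and 25.2 ± 5.62 RPKM (SD, n = 3). Spint1 had 18.8 ± 8.31 RPKM in control tumor cells, where it overlapped with St14, and 17.2 ± 4.07 RPKM in TICs, where its highest sample (19.6 RPKM) was just below the lowest of St14 (19.8 RPKM). For St14 the union of exons was 7637 bases and the longest protein-coding transcript 3259 bases. For Spint2 these lengths were 4556 and 1384 bases, and for Spint1 2767 and 2323 bases. With the longest protein-coding transcript as the length, St14 had 58.0 ± 9.59 RPKM and stood above Prss8 (25.4 ± 12.9) in every sample of both groups, and above Spint1 (21.4 ± 7.04), while Spint2 had 596 ± 67.5 RPKM. On that scale Spint2 was at percentile 99.3 and St14 at percentile 90 of 11250 tested protein-coding genes, with Prss8 at 78 and Spint1 at 74.4.

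The balance of inhibitor and protease transcripts was measured as the log2 ratio of their levels per length within each sample. This ratio does not depend on scaling between samples. Protein and protease activity are not part of these counts. The ratio of Spint2 to Prss8 was 2.34, 2.38 and 2.45 in control tumor cells and 2.98, 3.78 and 4.31 in TICs. It was thus higher in every TIC sample, by a mean of 1.3 log2 units (exact two-sided permutation test, p = 0.1, the smallest possible; 0.3 adjusted over the 6 pairs of inhibitor and protease). The ratio of Spint1 to Prss8 was −1.90, −0.76 and −0.46 in control tumor cells and −0.40, 0.17 and 1.24 in TICs. These groups did not overlap either, with a difference of 1.38 log2 units (exact permutation p = 0.1; adjusted p = 0.3). Both ratios share the same Prss8 counts. By themselves Spint1 and Spint2 each had a log2 fold change of −0.12, against −1.25 for Prss8, so that both differences mainly repeat that of Prss8. The ratios to matriptase showed no such separation. Spint2 to St14 was 3.07, 2.63 and 3.17 in control tumor cells and 2.72, 2.62 and 3.06 in TICs (difference −0.16, exact permutation p = 0.4). Spint1 to St14 differed by −0.08 log2 units between the groups, against standard deviations of 0.50 in TICs and 0.72 in control tumor cells (exact permutation p = 0.9). With Prss22 the ratios rested on 0 to 19 counts, and the groups overlapped (exact permutation p = 0.7 with Spint1 and p = 0.8 with Spint2).

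**Figure D2:**
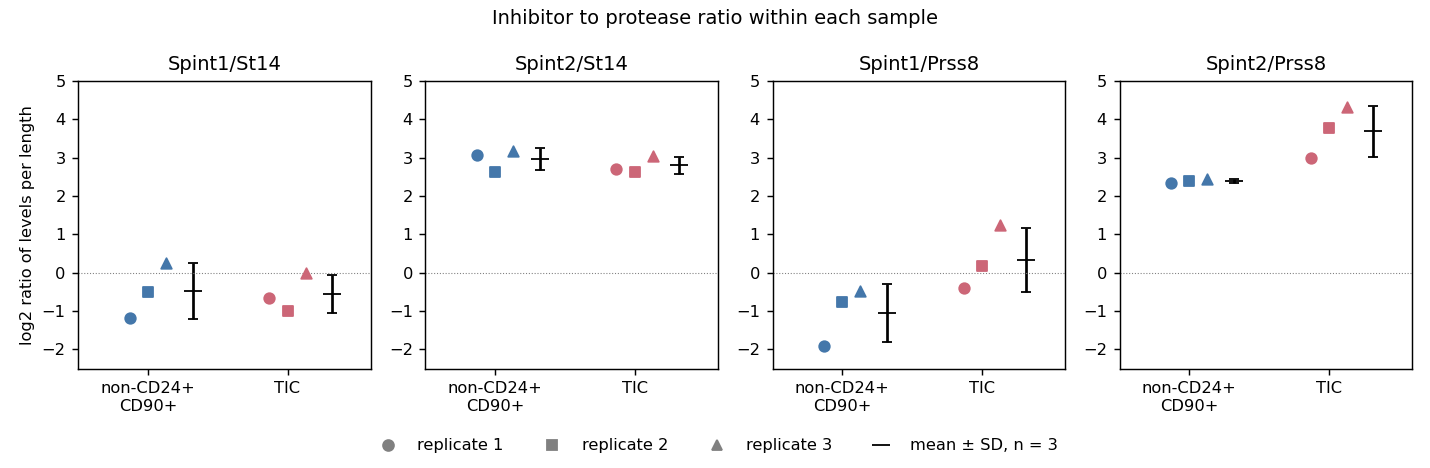
Log2 ratio of inhibitor to protease transcript level per length in each sample, with the mean and SD of each group (n = 3). The ratios to Prss8 lie higher in all TIC samples, whereas the ratios to St14 overlap between the groups.

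The 5 genes are epithelial, and the sorted groups differed in markers of other cell types. Of 20 general epithelial markers, all tested, 18 had a negative log2 fold change in TICs with a median of −0.36, against −0.01 over all tested genes, and 0 passed the threshold. Their summed level ranged from 5137 to 6056 CPM in TICs and from 7680 to 7939 CPM in control tumor cells. The keratins Krt8 and Krt18, Epcam and Cdh1 were expressed in every sample. Summed fibroblast markers ranged from 8431 to 11830 CPM in TICs and from 3258 to 3724 CPM in the other group, and 8 of 12 passed the threshold, all higher in TICs (Col1a1, Col1a2, Col3a1, Dcn, Dpt, Fbln1, Mfap5 and Pi16). All 12 endothelial and all 9 pericyte and smooth muscle markers had positive log2 fold changes, of which 1 in each list passed (Robo4 and Rgs5). Summed endothelial markers ranged from 387 to 1737 CPM in TICs and from 281 to 370 CPM in the other group, and pericyte markers from 906 to 1519 CPM and from 457 to 534 CPM. Of 12 immune markers 4 were tested, with a median log2 fold change of −0.16. Of these 1, Lyz2, was called higher in TICs, and the other 3 had negative log2 fold changes. Ptprc, the gene of CD45, had 33 counts in 1 sample and 0 in the others. Luminal markers had a median log2 fold change of −0.10 and basal markers one of −0.03, with 0 called among 14 and 12 tested. Of 8 adipocyte markers 1, Fabp4, was tested and called higher, and the defining markers Adipoq and Plin1 were at 0 in every sample. The part of these cells in the values of St14, Prss8, Spint1 and Spint2 was not tested.

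Each gene was also set against the mean log2 CPM of the 20 epithelial markers of the same sample. This mean was 7.19, 7.14 and 7.30 in control tumor cells and 7.08, 6.51 and 6.43 in TICs. The reference was thus itself lower in TICs by 0.54 log2 units (difference −0.54), and a gene with equal CPM in both groups gains as much by construction. Relative to the reference, 17.2% of all tested genes were higher in every TIC sample than in every control sample, and 1.99% were lower. Prss8 lay at −1.06, −1.19 and −1.21 log2 units from the reference in control tumor cells and at −1.49, −2.13 and −2.48 in TICs (difference −0.88, exact permutation p = 0.1). Prss8 was lower in every TIC sample, as it was with the median of the markers (difference −0.93) or with luminal keratins alone (difference −0.86) as reference. St14 lay at 0.26, 0.59 and 0.11 in control tumor cells and at 0.81, 1.06 and 0.81 in TICs (difference 0.57, exact permutation p = 0.1). Spint2 lay at 2.58, 2.48 and 2.54 and at 2.78, 2.94 and 3.12 (difference 0.41, exact permutation p = 0.1). Both differences were of the size of the fall of the reference. The separation of Spint2 was lost with the median of the markers (difference 0.36, exact permutation p = 0.2) and with luminal keratins (difference 0.43, exact permutation p = 0.3). Spint1 overlapped between the groups, at −2.37, −1.38 and −1.09 and at −1.31, −1.38 and −0.67 (difference 0.49, exact permutation p = 0.5). Seen gene by gene, the log2 fold changes of the 20 markers ran from −1.19 to 0.51: that of Prss8 was below all 20, that of St14 was above 18, and those of Spint1 and Spint2 were each above 17. None of the 20 markers and none of the 4 genes passed the threshold.

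**Figure D3:**
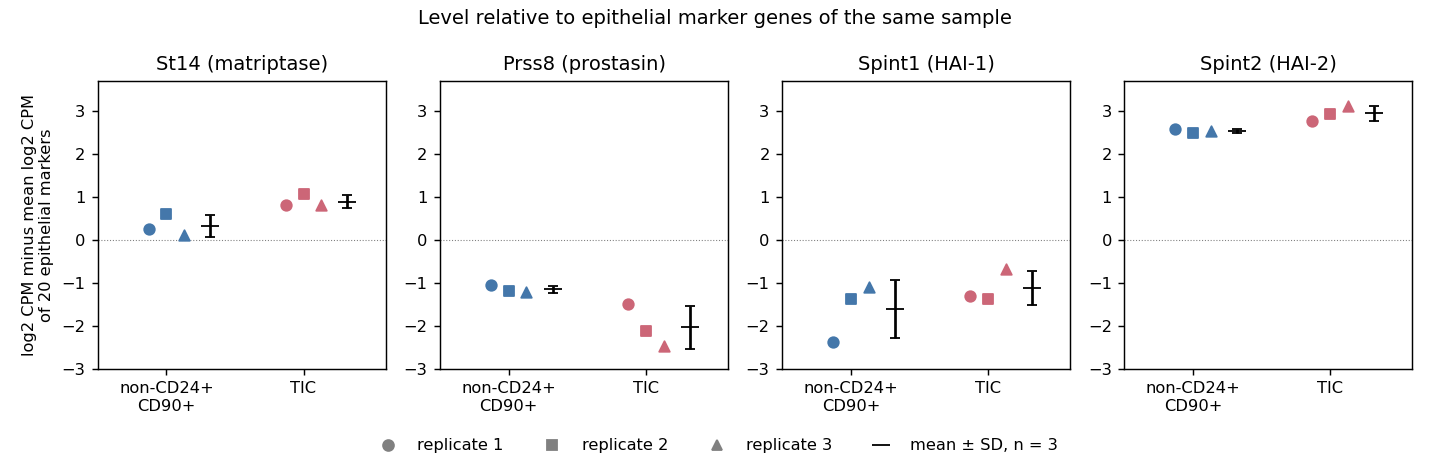
Log2 CPM of each gene minus the mean log2 CPM of 20 epithelial markers in the same sample, with the mean and SD of each group (n = 3). Against this reference, which is itself lower in TICs, Prss8 lies lower and St14 and Spint2 lie higher in all 3 TIC samples, while Spint1 overlaps. With the median of the markers or with luminal keratins as reference Spint2 overlaps too.

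The relatives of matriptase and prostasin were sparse in these tumors. Of 20 other type II transmembrane serine proteases, 19 had a row, 10 of them had no count in any sample, and 4 were tested with 0 called. Tmprss13 was the most abundant of those named, at 162 ± 56.7 CPM in TICs and 211 ± 29.4 CPM in control tumor cells (log2 fold change −0.38, standard error 0.33, adjusted p = 0.98). Its samples overlapped, with 222, 157 and 109 CPM in TICs against 184, 242 and 206 CPM. Tmprss4 averaged 9.22 and 14.0 CPM, and Tmprss2 7.75 and 4.08 CPM, in TICs and control tumor cells. Of 20 other Prss genes 13 had no count and 4 were tested, again with 0 called. Prss12, Prss23 and Prss16, none of which is an anchored surface protease of the prostasin kind, had log2 fold changes of 0.59, 0.70 and 0.39 (adjusted p = 0.97, 1 and 1).

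Among other inhibitors, 2 serpins were higher in TICs. Of 13 serpins of trypsin-like proteases 6 were tested and 2 passed the threshold, both higher in TICs, against 1.36% of all genes called higher, and the median log2 fold change of the list was 1.19. Serpine2 encodes protease nexin-1, which binds thrombin, plasminogen activators and prostasin. It had 404, 544 and 703 CPM in TICs and 198, 243 and 229 CPM in control tumor cells (log2 fold change 1.30, standard error 0.30, adjusted p = 0.0064). Serpinb6a encodes an intracellular serpin. It had 64.6, 58.3 and 34.4 CPM in TICs and 12.8, 7.72 and 7.01 CPM in the other group (log2 fold change 2.51, standard error 0.60, adjusted p = 0.013). For both genes every TIC sample was above every other sample. The quasi-likelihood test kept Serpine2 (adjusted p = 0.073) and lost Serpinb6a (adjusted p = 0.13). Serpine2 lost its call without control replicate 1 (adjusted p = 0.1032), and Serpinb6a without control replicates 2 or 3 or TIC replicate 2 (adjusted p = 0.14, 0.13 and 0.11). The fibroblast, pericyte and endothelial markers given above were higher in the same samples, and their part in the serpin values was not tested. Of 12 other Kunitz genes 4 were tested with 0 called. App and Aplp2, which encode membrane proteins with a Kunitz domain in some isoforms, had log2 fold changes of 0.19 and 0.45 (adjusted p = 1 and 0.95), and Tfpi, the gene of tissue factor pathway inhibitor, one of −0.48 (adjusted p = 1).

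**Figure D4:**
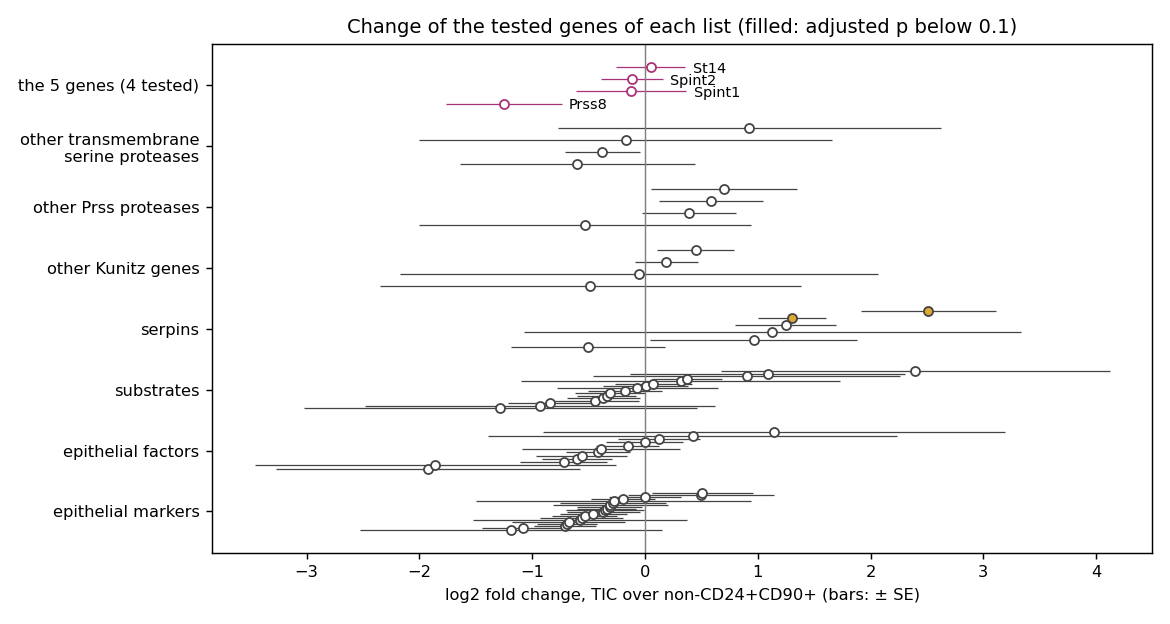
Log2 fold change of TICs over control tumor cells with standard errors, 1 point per tested gene, for the 4 tested members, the related lists and 20 epithelial markers. Filled points passed the adjusted threshold: these are Serpine2 and Serpinb6a, at 1.30 and 2.51.

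Of 23 listed targets of the system 21 had a row and 16 were tested, with 0 called and a median log2 fold change of −0.12. Scnn1b, a subunit of the epithelial sodium channel that prostasin activates, had 41.5, 52.6 and 62.4 CPM in TICs and 81.4, 87.5 and 111 CPM in control tumor cells. Its groups did not overlap, and its log2 fold change of −0.84 (standard error 0.38) had an adjusted p of 0.49. The subunit Scnn1g went the other way (log2 fold change 0.90, standard error 1.36), with overlapping groups. Scnn1g had 7.91, 10.5 and 10.6 CPM in TICs and 1.02, 2.04 and 12.4 CPM in control tumor cells. Scnn1a, a further subunit, was below the filter on low counts. Epcam, which matriptase can cleave, had 1254, 1173 and 1115 CPM in TICs and 1397, 1539 and 1547 CPM in the other group (log2 fold change −0.34, standard error 0.26, adjusted p = 0.96). Groups that do not overlap, in either direction, occurred in 15.2% of all tested genes. Pdgfd, a growth factor activated by proteolysis, averaged 9.72 ± 4.40 CPM in TICs and 1.83 ± 3.04 CPM in control tumor cells (adjusted p = 0.98). Met and F2rl1, the receptors for hepatocyte growth factor and PAR2 signaling, were picked for their role after their values were seen. Met averaged 173 ± 26.1 and 215 ± 47.4 CPM, and F2rl1 4.29 ± 6.50 and 10.5 ± 11.3 CPM, in TICs and control tumor cells, and neither passed the threshold.

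Of 14 transcription and splicing factors of epithelial cells 12 were tested, with 0 called and a median log2 fold change of −0.40. Esrp1, an epithelial splicing factor, had 104, 89.2 and 92.8 CPM in TICs and 157, 149 and 129 CPM in control tumor cells (log2 fold change −0.61, standard error 0.31, adjusted p = 0.64). The groups did not overlap for Esrp1 or for Ehf, an ETS factor of epithelia, with 174, 181 and 183 CPM in TICs and 221, 263 and 235 CPM in the other group (log2 fold change −0.42, adjusted p = 0.90). Elf5, an ETS factor of alveolar luminal cells, averaged 118 ± 48.7 and 195.3 ± 72.7 CPM in TICs and control tumor cells (adjusted p = 0.70).

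The 4 tested genes did not share 1 pattern over the 6 samples. Pearson's r of log2 CPM between pairs of them, over 6 samples, was 0.76 for Prss8 and Spint2 and between 0.04 and 0.38 for the other 5 pairs. Among 6773 other genes averaging at least 20 CPM, the profiles most like that of St14 included those of Tcn2 and Stard10 (r = 0.99 each). For Prss8 these were Pik3cb, Ints1 and Eif3b (0.99 each), for Spint1 Mboat1, Ccdc115 and Zfp655 (0.98 each), and for Spint2 Rnf167, Jmy and Rpl13a (0.99, 0.99 and 0.98). With 6 samples such values are common: 43 genes had an r above 0.9 with St14, 197 with Prss8, 44 with Spint1 and 85 with Spint2. The 2 groups and the library scaling are shared by all of these profiles. The 3 genes most like Prss8 had log2 fold changes of −0.47, −0.86 and −0.68, all smaller in size than the −1.25 of Prss8, and none passed the threshold.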

How the data were processed

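RNA-seq was measured in 6 samples. Per the study's methods, reads were trimmed (Trimmomatic 0.32) and aligned to GRCm38 (STAR 2.4.0), multiply mapped reads were removed (SAMtools 1.1) and gene counts were made with HTSeq. The authors deposited raw counts for 41388 Ensembl genes. The annotation release and the strand setting are not given in the sources used here. Removal of shared reads can undercount genes with close copies.

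Genes above 1 CPM in 3 or more samples entered the test, were scaled by TMM and compared with exactTest of edgeR 4.0.16 (R 4.3.3) with tagwise dispersions. P-values were adjusted by Benjamini-Hochberg over 12192 genes, with a threshold of 0.1. The test and the adjustment follow the study's methods, whose CPM minimum is not stated. The threshold is the q-value limit given in the study's results. Standard errors came from the negative binomial fit, and 95% intervals are 1.96 standard errors to either side. Log2 CPM used a prior count of 2 and ratios one of 0.5. Each sample was a pool of sorts, so that p-values measure the spread between pools. Symbols, lengths and positions came from GENCODE M21 on GRCm38 (40254 genes matched). Sequence stretches were found by translating the annotated coding sequence.

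Genes named are the 5 members, in each related list every called gene or otherwise the 3 genes with the smallest p-value, in the marker lists the called genes, and the 3 genes most like each member. Outside this rule are Met and F2rl1, the sodium channel subunits Scnn1a and Scnn1g, and Kat8, which overlaps Prss8. Also outside it are the defining or sorting markers Krt8, Krt18, Cdh1, Epcam, Ptprc, Adipoq, Plin1, Cd24a and Thy1. A result that the rule names is not reported here. The members and lists were chosen with earlier results of these data known. The length of the longest protein-coding transcript and both other tests without TIC replicate 1 were added after seeing the data. The other alternatives were the quasi-likelihood test, DESeq2 1.42.0, RLE and library-size scaling, other filters, trended dispersions, a threshold of 0.05, other priors, references and lengths, and each sample left out in turn. The code was tested on simulated counts.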

Additional observations from a re-analysis of the deposited data

How the results depend on the processing

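The number of genes called moved most. Against 189 genes in exactTest, 116 passed at a threshold of 0.05, 50 passed in the quasi-likelihood test, 306 in DESeq2 and 112 without a filter on low counts, and leaving out each sample in turn gave 72 to 323. With TIC replicate 1 left out, which was chosen after seeing the data, the quasi-likelihood test called 76 genes and DESeq2 650. Among the 5 genes, 0 were called except without TIC replicate 1, where Prss8 made 1 in exactTest and 1 in DESeq2, so that the range over left-out samples was 0 to 1. Among the related lists 2 genes were called, against 1 in the quasi-likelihood test with or without TIC replicate 1, and 1 to 3 with each sample left out. The log2 fold change of Prss8 kept its sign in every setting, from −1.87 to −0.94 with each sample left out and −1.84 in DESeq2 without TIC replicate 1. That of Spint2 stayed negative too, from −0.23 to −0.03 with each sample left out. Those of St14 and Spint1 did not keep their sign. St14 (0.05) ran from −0.11 to 0.22 with each sample left out, turning negative without control replicate 3 (−0.0061) and without TIC replicate 1 (−0.11), and was −0.0039 with library size alone, −0.11 in the quasi-likelihood test and −0.077 in DESeq2 without TIC replicate 1. Spint1 ran from −0.42 to 0.22, and was 0.06 without TIC replicate 2. The difference in the ratio of Spint1 to St14 ran from −0.43 to 0.29 (0.14 without TIC replicate 2). The ratios to Prss22 ran from −0.34 to 2.43 for Spint1 and from −0.43 to 2.50 for Spint2, the latter being −0.32 without control replicate 3 and −0.18 without TIC replicate 2. The ratios of Spint1 and Spint2 to Prss8 stayed positive, from 0.93 to 1.75 and from 0.99 to 1.66. Levels depended on the length used: St14 moved from 24.8 RPKM to 53.3 with the longest transcript and 58.0 with the longest protein-coding one, and Spint2 from 181 to 254 and 596. Apart from the lengths and the left-out samples, the cause was not tested. No paired analysis was possible because the labels number the samples 1 to 6 without sharing a number between groups. The sources do not state which TIC and control pools came from the same mice, and exactTest treated all samples as independent. Prss22 had 0 to 19 counts, too few for a test.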

Other observations

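The number of St14 counts per Prss8 count, a ratio picked after the values were seen and given without a test, came to 2.50, 3.46 and 2.50 in control tumor cells replicates 1 to 3. In TIC replicates 1 to 3 it was 4.96, 9.26 and 9.87. The ranges did not overlap.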
